A study of Mus musculus with 143 samples.

Results

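The subcortical maternal complex (SCMC) is a protein assembly of the mammalian oocyte, and its genes were followed here through every RNA library of a study of RNA exosome mutants. The 8 genes were chosen by name: Nlrp5, Ooep, Tle6, Khdc3, Padi6, Zbed3, Nlrp2 and Nlrp4f. They are 8 of 55573 gene IDs counted in the poly(A) libraries and of 55487 counted in the RiboMinus libraries. Each symbol matched 1 gene ID, and all 8 passed the filter on low counts in every comparison.

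The complex lies beneath the oocyte's plasma membrane, where NLRP5 (also called MATER), OOEP (FLOPED) and TLE6 form its core, and KHDC3 (FILIA) binds to that core. Its messenger RNAs are made and stored while the oocyte grows, and much stored maternal RNA is lost during meiotic maturation. Loss of core members in the mother leaves embryos that arrest at the first cleavages, which is why the genes are known as maternal-effect genes. PADI6 belongs to the cytoplasmic lattices of the oocyte, and ZBED3, NLRP2 and NLRP4F are further proteins reported with the complex.

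The study removed Dis3, Exosc10 or both from mouse oocytes; they encode the ribonucleases of the nuclear RNA exosome, which trims and degrades RNA. Single-oocyte poly(A) sequencing covered control and Dis3 conditional knockout (cKO) females at 3 stages. These were oocytes with an intact nucleus (germinal vesicle, GV; 8 control, 15 cKO), GV oocytes after 3 h of culture (GV3h; 8 and 16), and metaphase II eggs (MII; 8 and 16). RiboMinus sequencing, which removes ribosomal RNA in place of selecting poly(A) tails, covered 8 single oocytes in each of 6 groups. The groups were adult GV control and Dis3 cKO, and, at postnatal day 20 (p20), control, Dis3 cKO, Exosc10 cKO and the double knockout (dcKO). Per the labels, GV and GV3h oocytes were dissected from ovaries into M2 medium, MII eggs came from the oviducts of superovulated females, and synthetic ERCC RNA was added to each poly(A) lysate. The RiboMinus libraries also hold ERCC counts, but the labels do not say how the spike-in was added there. The mouse lines were made with CRISPR/Cas9 per the labels, which do not name the Cre line or the deleted part of either gene. They also do not say whether the oocytes of a group came from separate animals, so p-values measure the spread between these oocytes.

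In the RefSeq annotation of the mouse assembly GRCm38.p6, all 8 are protein-coding genes. Nlrp5 lies at chr7:23385889-23441923 on the plus strand and Nlrp2 at chr7:5298547-5351035 on the minus strand. Ooep (chr9:78376903-78378588, minus strand) and Khdc3 (chr9:73101381-73106631, plus strand) share chromosome 9. Zbed3 (chr13:95323605-95337842, plus strand) and Nlrp4f (chr13:65177111-65205716, minus strand) share chromosome 13. Tle6 lies at chr10:81590904-81601185 and Padi6 at chr4:140727355-140742643, both on the minus strand. Zbed3 overlaps the small nucleolar RNAs Snora47 and LOC115485922, Tle6 overlaps Tle2 and Gm32024, and Nlrp2 overlaps the pseudogenes Gm18757 and Gm5065. Whether counting used strand is not given in the sources used here, so reads could have been shared between these overlapping genes.

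RefSeq start sites with a promoter sequence were found for all 8 members. Those of 4 are shown: Ooep and Khdc3, which had the largest decreases at MII, Padi6, which was called lower in the Exosc10 cKO and higher in the dcKO, and Nlrp2, which was lower in several knockouts. Each is given as 250 bases before the start site and 50 bases from it, 5′ to 3′ on the gene's strand. The Khdc3 start site lies inside the span given for that gene and not at its end. Capitals mark E-boxes (CANNTG, which reads the same on both strands), the element bound by basic helix-loop-helix factors such as FIGLA.
Ooep: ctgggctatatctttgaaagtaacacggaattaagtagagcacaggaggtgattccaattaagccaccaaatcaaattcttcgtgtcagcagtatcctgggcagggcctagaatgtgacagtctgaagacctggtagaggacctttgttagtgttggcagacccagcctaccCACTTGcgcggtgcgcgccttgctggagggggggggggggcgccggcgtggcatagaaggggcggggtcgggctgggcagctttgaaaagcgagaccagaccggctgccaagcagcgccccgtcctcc
Khdc3: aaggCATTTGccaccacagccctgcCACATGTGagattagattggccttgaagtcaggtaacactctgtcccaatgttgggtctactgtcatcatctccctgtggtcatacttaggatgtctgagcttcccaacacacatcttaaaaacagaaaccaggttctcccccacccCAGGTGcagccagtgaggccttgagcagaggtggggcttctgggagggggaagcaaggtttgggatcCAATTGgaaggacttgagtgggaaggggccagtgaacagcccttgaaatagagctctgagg
Padi6: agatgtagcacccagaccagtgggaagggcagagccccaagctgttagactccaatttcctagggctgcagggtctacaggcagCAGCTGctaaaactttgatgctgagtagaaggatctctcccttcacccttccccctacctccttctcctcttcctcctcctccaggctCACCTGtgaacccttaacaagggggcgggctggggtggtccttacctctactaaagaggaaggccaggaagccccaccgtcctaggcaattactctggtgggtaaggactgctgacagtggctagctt
Nlrp2: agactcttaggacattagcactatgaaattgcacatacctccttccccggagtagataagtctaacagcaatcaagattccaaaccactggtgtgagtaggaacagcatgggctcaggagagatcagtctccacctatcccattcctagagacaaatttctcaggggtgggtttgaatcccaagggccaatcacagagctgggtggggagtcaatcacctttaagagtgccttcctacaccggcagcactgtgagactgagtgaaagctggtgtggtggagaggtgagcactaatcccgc
The regions are chr9:78378539-78378838 for Ooep, chr9:73102148-73102447 for Khdc3, chr4:140742594-140742893 for Padi6 and chr7:5350986-5351285 for Nlrp2. An E-box began at position -78 from the start site in Ooep, Khdc3 and Padi6, while the Nlrp2 sequence held 0 matches. In Khdc3 the E-boxes at -225 and -223 overlap and are printed as one run of capitals. Of 32851 promoters of the same length, 72.3% held at least 1 E-box, so a match is common. The share of promoters with an E-box at position -78 was not counted. The element TAATTG, named for the oocyte factor NOBOX and searched on both strands, was found at -195 in Ooep and at 9 in Padi6 among the 4, and in 8.00% of all promoters. A match describes the letters and is not a measured binding site.

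The 71 poly(A) libraries held 4843964 to 15412200 gene counts each, and the 48 RiboMinus libraries 8492102 to 35429028. Levels are given as counts per 1000000 (CPM) after TMM scaling, and differences as log2 fold changes with a standard error (SE). A gene is called when its Benjamini-Hochberg adjusted p over all genes tested is under 0.05. As a check of the labels, Dis3 was lower in every Dis3 cKO group (log2 fold changes from -3.63 to -2.18, dcKO included) and Exosc10 in the Exosc10 cKO (-5.22) and the dcKO (-4.01), all called. Exosc10 was also called lower in the poly(A) Dis3 cKO at GV3h (-0.53), and not in the other 4 Dis3 cKO groups. Of 10 oocyte markers, 9 or 10 were at 1 CPM or more in every RNA group, with summed levels of 4229 to 19520 CPM per library. Markers of granulosa or cumulus cells summed to 19.2 to 148 CPM. Of 10 such markers, those at 1 CPM or more ranged from 2 in poly(A) Dis3 cKO MII eggs to 9 in poly(A) control GV oocytes.

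In control GV oocytes the poly(A) RNA of all 8 genes was abundant. Padi6, a member of the peptidylarginine deiminase family, ranged from 3639 to 5266 CPM (median 3971). Zbed3, which encodes a zinc finger protein of the BED type, ranged from 2117 to 4006 CPM (median 3406). Among the core members, Ooep ranged from 1740.2 to 2948 CPM (median 2059), Tle6 from 1557 to 1989 CPM (median 1859) and Nlrp5 from 1057 to 2098 CPM (median 1282). Khdc3, whose protein has a KH-type RNA-binding fold, ranged from 1623 to 3083 CPM (median 1979.9). The other NLR family genes ranged from 1575 to 2085 CPM (median 1959) for Nlrp4f and from 405 to 569 CPM (median 475) for Nlrp2. Transcript lengths were not used here, so a CPM is a share of reads and gives no order of transcript number between genes. The plot of poly(A) levels shows each member across the 6 groups.

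**Figure D1:**
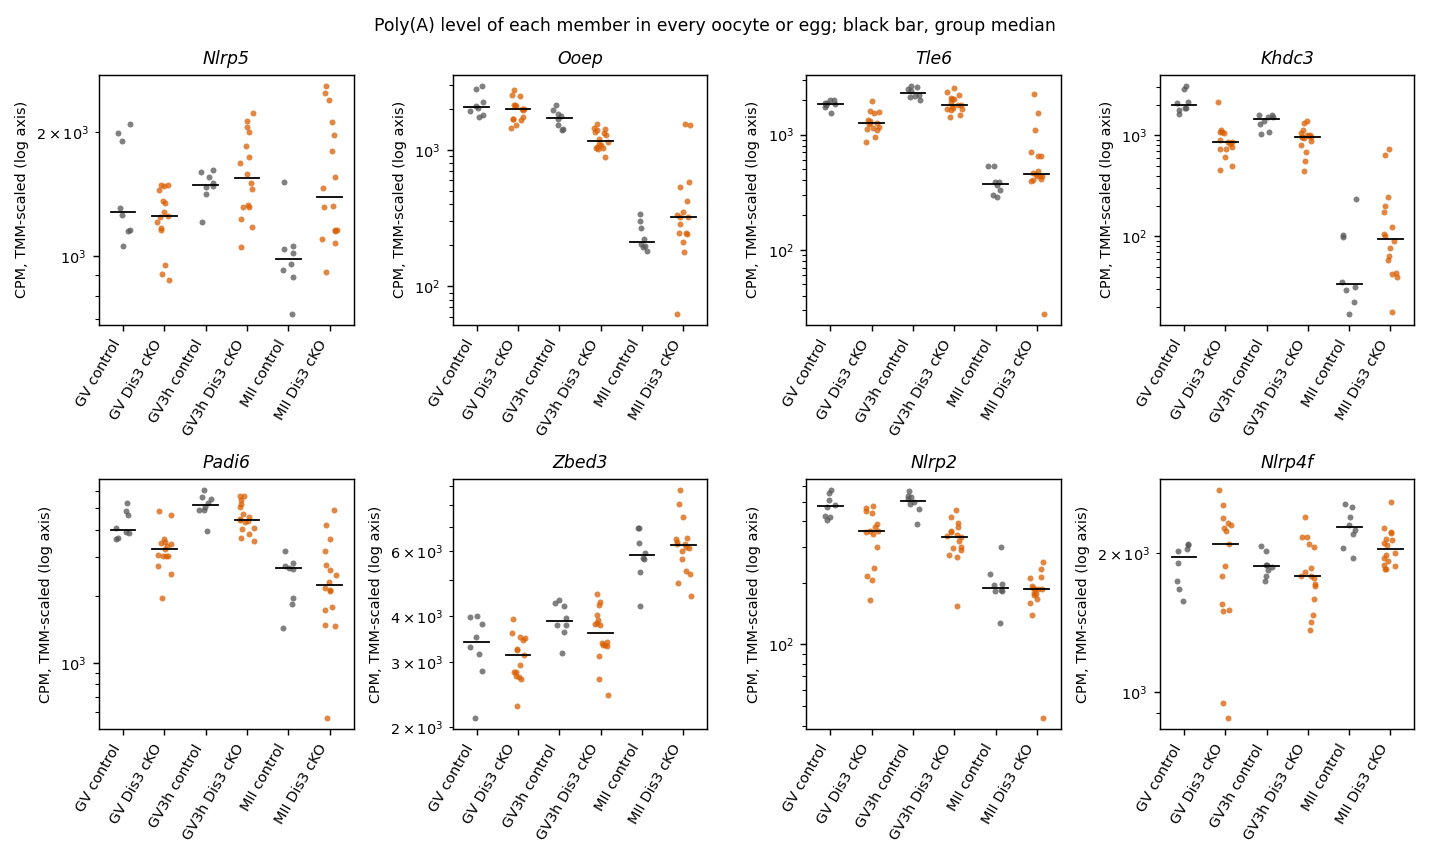
Poly(A) level of each of the 8 genes (CPM, log axis) in single oocytes of the 6 poly(A) groups; each point is 1 library and each bar the group median. Ooep, Tle6 and Khdc3 drop from the GV groups to MII in controls, Zbed3 is higher at MII, and some MII eggs of the Dis3 cKO group lie far above the control eggs in Ooep, Tle6 and Khdc3.

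The control oocytes show how the members' share of poly(A) RNA differed between the stages. After 3 h of culture, 0 of 8 members were called against GV (1.14% of 17389 genes tested were called higher and 1.56% lower; edgeR), 0 members had an unadjusted p under 0.05, and DESeq2 called 0. In a fit of these groups alone, Tle6 (0.35 with an adjusted p of 0.00345) and Padi6 (0.29 with an adjusted p of 0.0341) were called higher (7.66% of genes) and Khdc3 (-0.64 with an adjusted p of 0.0026) and Ooep (-0.34 with an adjusted p of 0.0465) lower (7.45%). At MII, 6 members were called lower than at GV (35.8% of genes tested) and 1 higher (22.7%). The median log2 fold change of the members was -1.04, beside -0.27 over all genes tested. The mitochondrial share of gene counts was 0.682% to 1.09% in control MII eggs and 0.196% to 0.337% in control GV oocytes. Genes detected numbered 16772 to 17412 and 18661 to 21431. Neither overlapped between the stages, and their part in the result was not tested.

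Khdc3 fell most of the 8: it ranged from 17.2 to 234 CPM (median 33.5) in control MII eggs, with a log2 fold change -4.92, SE 0.51, adjusted p = 2.43e-13. Ooep ranged from 181 to 338 CPM (median 212 CPM, log2 fold change -3.21, SE 0.31, adjusted p = 1.89e-14). Tle6 ranged from 287 to 538 CPM (median 375 CPM, log2 fold change -2.23, SE 0.30, adjusted p = 8.7e-10). For these 3 genes every control egg lay below every control GV oocyte, as for 17.6% of all genes tested. Nlrp5, the scaffold of the core, fell much less, to levels from 723 to 1516 CPM (median 985 CPM, log2 fold change -0.55, SE 0.17, adjusted p = 0.00445), and 7 of 8 eggs were below all GV oocytes. Among the core genes, Nlrp5 had the smallest change and Ooep the largest.

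Outside the core, Nlrp2 ranged from 127 to 299 CPM (median 189.8) at MII (log2 fold change -1.27, SE 0.19, adjusted p = 1.52e-08) and Padi6 from 1437 to 3186 CPM (median 2678 CPM, log2 fold change -0.81, SE 0.20, adjusted p = 0.000297). Both fell without overlap between the stages. Zbed3 rose in CPM, ranging from 4269 to 6946 CPM (median 5850.2 CPM, log2 fold change 0.82, SE 0.12, adjusted p = 8.77e-09), with all 8 eggs above all GV oocytes, as for 10.8% of all genes tested. Nlrp4f ranged from 1946 to 2550.1 CPM (median 2272), and its log2 fold change of 0.27 (SE 0.13, adjusted p = 0.0686) was not called by edgeR. Nlrp4f was called higher by DESeq2 (0.34 with an adjusted p of 0.0189), with no low-count filter (0.35 with an adjusted p of 0.0318), with the compared groups alone (0.33 with an adjusted p of 0.00237) and without control GV oocyte 1 (0.37 with an adjusted p of 0.0158).

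These are shares of a pool that was itself smaller at MII relative to the added ERCC RNA. Gene counts per ERCC count averaged 137 in control GV oocytes and 46.0 in control MII eggs, and scaling to ERCC moved the median of all genes from -0.27 to -2.12. Under ERCC scaling all 8 members were called lower at MII (87.5% of genes tested), and the direction of Zbed3 and Nlrp4f flipped, to -1.03 with an adjusted p of 3.18e-06 and -1.59 with an adjusted p of 6.53e-11. Relative to the shift of all genes, Zbed3 and Nlrp4f stayed above the median gene. Khdc3 (-6.81), Ooep (-5.06) and Tle6 (-4.12) again had the lowest log2 fold changes of the 8.

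**Figure D2:**
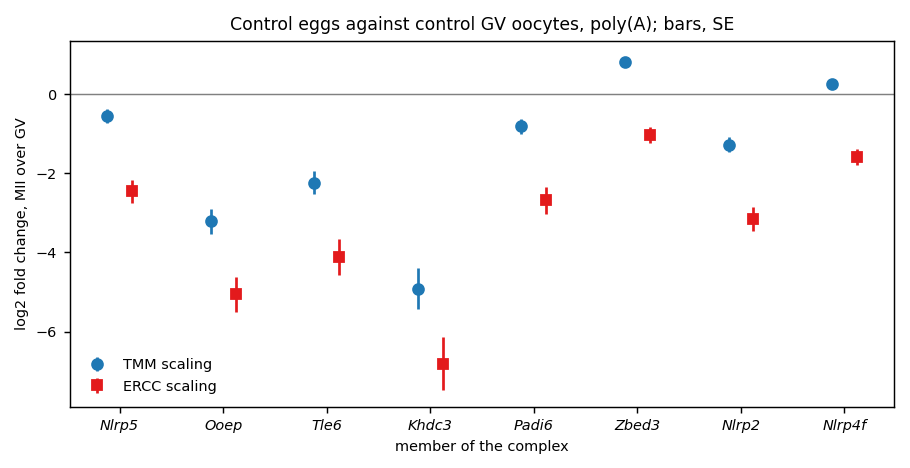
Log2 fold change of the 8 genes from GV to MII (points, with bars of 1 SE) under TMM scaling and under ERCC scaling. Zbed3 in controls is at 0.82 under TMM and -1.03 under ERCC scaling, and Khdc3, Ooep and Tle6 are lowest in controls under both.

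In the Dis3 cKO, members also differed between stages. After 3 h of culture Nlrp5 (log2 fold change 0.37, SE 0.12, adjusted p = 0.029) and Padi6 (log2 fold change 0.46, SE 0.14, adjusted p = 0.015) were called higher than in cKO GV oocytes and Ooep lower (log2 fold change -0.72, SE 0.21, adjusted p = 0.00984), where 7.42% of genes were called higher and 9.88% lower. ERCC scaling moved the median gene of that comparison from 0.00 to 0.47 and the direction of Nlrp4f flipped from -0.08, not called, to 0.39 with an adjusted p of 0.0257. Under that scaling 5 members were called higher, as were 36.1% of genes, and the call of Ooep was lost (-0.24 with an adjusted p of 0.491). Tle6 did not pass (log2 fold change 0.54, SE 0.20, adjusted p = 0.0541), but it was called higher in 6 of 7 alternatives, DESeq2 among them (0.54 with an adjusted p of 0.0385). From GV to MII, 5 members were called lower (38.5% of genes) and Nlrp5 and Zbed3 higher (24.8%). Khdc3 fell by 2.41, Ooep by 2.10 and Tle6 by 0.93 on the log2 scale, and Nlrp2 (-0.92) and Padi6 (-0.42) were also called. Nlrp5 (log2 fold change 0.36, SE 0.12, adjusted p = 0.00827) rose in CPM where it had fallen in controls. The call of Nlrp5 was lost with oocytes numbered 1 to 8 alone (0.31 with an adjusted p of 0.104), also with the replicate number as a block (0.28 with an adjusted p of 0.133), and that of Padi6 with the compared groups alone (-0.36 with an adjusted p of 0.0795). Under ERCC scaling the median gene moved to -1.50 and 82.3% of genes were called lower. On that scale Nlrp5 was called lower (-0.87 with an adjusted p of 0.000104), the direction of Zbed3 flipped to -0.27 with an adjusted p of 0.0646, and Nlrp4f, which was at 0.10 without a call under TMM, was called lower (-1.15 with an adjusted p of 3.13e-11). Under TMM with oocytes numbered 1 to 8 and the replicate number as a block, Nlrp4f was called higher (3771 of 16554 genes).

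The Dis3 cKO was compared with controls at each stage. In GV oocytes, Khdc3 and Nlrp2 were called lower, 2 of 8 members (8.33% of genes tested), and 0 higher (13.6%). Khdc3 ranged from 449.6 to 2141 CPM (median 850.2) in cKO oocytes (log2 fold change -1.25, SE 0.37, adjusted p = 0.00863), and 14 of 15 were below every control. The exception, cKO oocyte 8, was at 2141 CPM, and without it the log2 fold change was -1.39 with an adjusted p of 0.003. Nlrp2, an NLR family gene that is itself a maternal-effect gene, ranged from 165 to 475 CPM (median 358 CPM, log2 fold change -0.48, SE 0.16, adjusted p = 0.0197), with 11 of 15 oocytes below every control. Tle6 (log2 fold change -0.51, SE 0.24, adjusted p = 0.135) and Padi6 (log2 fold change -0.36, SE 0.17, adjusted p = 0.126) were not called, although 12 and 13 of 15 cKO oocytes lay below every control. With the compared groups alone both were called lower (Tle6 -0.51 with an adjusted p of 0.000969, Padi6 -0.36 with an adjusted p of 0.0261), as with oocytes numbered 1 to 8 alone (Tle6 -0.66 with an adjusted p of 0.00676, Padi6 -0.44 with an adjusted p of 0.036). Adding the replicate number as a block to the latter kept the call of Tle6 (-0.66 with an adjusted p of 0.00812) and not that of Padi6 (-0.44 with an adjusted p of 0.0513). Nlrp5 (-0.26), Ooep (-0.14), Zbed3 (-0.10) and Nlrp4f (0.03) were not called either. Summed granulosa markers were 29.1 to 137 CPM in cKO and 53.5 to 148 CPM in control GV oocytes, and their part in the result was not tested. The mitochondrial share of gene counts was 0.388% to 1.35% in cKO and 0.196% to 0.337% in control oocytes, without overlap, and its part was not tested either. ERCC scaling moved the median gene from 0.04 to -0.23 and called the same 2 members, Khdc3 at -1.54 and Nlrp2 at -0.75, where 13.3% of genes were called lower, while Nlrp4f flipped to -0.25 without a call.

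After 3 h of culture Nlrp2 was the 1 member called (log2 fold change -0.59, SE 0.16, adjusted p = 0.00175), where 15.7% of genes were called lower and 22.9% higher. It ranged from 155 to 453 CPM (median 337) in cKO and from 387 to 563 CPM (median 506) in control oocytes, with 13 of 16 cKO oocytes below every control. Under ERCC scaling 0 members were called at this stage and Nlrp2 had -0.59 with an adjusted p of 0.0592, with 1 member at an unadjusted p under 0.05. Ooep was also below every control in 13 of 16 oocytes and ranged from 886 to 1559 CPM (median 1169.6) against 1410.5 to 2146 CPM (median 1729), but its adjusted p did not pass (log2 fold change -0.51, SE 0.24, adjusted p = 0.089). Ooep was called lower with the compared groups alone (-0.53 with an adjusted p of 3.48e-05), with oocytes numbered 1 to 8 alone (-0.69 with an adjusted p of 0.0169) and with the replicate number as a block there (-0.71 with an adjusted p of 0.00905). Khdc3 ranged from 439 to 1373 CPM (median 957) in cKO and from 1034 to 1582 CPM (median 1449.6) in control oocytes, which overlap (log2 fold change -0.55, SE 0.37, adjusted p = 0.244). Of 16 cKO oocytes, 12 were below every control for Khdc3 and 10 for Tle6, which was not called either. In an edgeR fit of the compared groups alone Khdc3 (adjusted p of 0.00123) and Tle6 (adjusted p of 0.00244) were called lower, as were 24.9% of genes. The interaction term, the Dis3 effect at GV3h minus that at GV, was called for 0 members (1.37% of genes higher, 0.667% lower; edgeR). 0 members had an unadjusted p under 0.05 for it and DESeq2 called 0. Granulosa markers at GV3h summed to 22.8 to 49.2 CPM in cKO and 35.4 to 71.2 CPM in control oocytes. The mitochondrial share was 0.332% to 0.600% in cKO and 0.235% to 0.401% in control oocytes. Genes detected numbered 20912 to 24632 in cKO and 19054 to 20559 in control oocytes, without overlap. The part of these differences in the result was not tested.

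In MII eggs, 4 members were called higher in the Dis3 cKO (27.3% of genes tested) and 0 lower (14.8%): the core genes Nlrp5, Ooep and Tle6, and Khdc3. Nlrp5 ranged from 913 to 2592 CPM (median 1391) in cKO eggs (log2 fold change 0.66, SE 0.15, adjusted p = 0.000354), and 7 of 16 were above every control. Ooep ranged from 63.1 to 1560.3 CPM (median 324 CPM, log2 fold change 0.97, SE 0.26, adjusted p = 0.00186) and Tle6 from 27.9 to 2276 CPM (median 458 CPM, log2 fold change 0.80, SE 0.25, adjusted p = 0.00838). In both, 6 of 16 cKO eggs were above every control while others lay within or below the control range. Khdc3 ranged from 17.7 to 731 CPM (median 94.5 CPM, log2 fold change 1.26, SE 0.40, adjusted p = 0.00822), with 3 eggs above every control. Padi6 (0.03), Zbed3 (0.09), Nlrp2 (-0.14) and Nlrp4f (-0.14) were not called. Under ERCC scaling the median of all genes moved from 0.16 to 0.52, and 5 members were called, all higher (37.6% of genes). Granulosa markers summed to 19.2 to 53.9 CPM in cKO and 61.7 to 100.4 CPM in control eggs, without overlap, and their part in the result was not tested.

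A pair of cKO eggs carried much of this difference. Eggs 7 and 11 held 1516 and 1560 CPM of Ooep, 1531 and 2276 CPM of Tle6, and 731 and 641 CPM of Khdc3. Each of these levels was above all control MII eggs, and Tle6 was close to its range of 1557 to 1989 CPM in control GV oocytes. They also had 81.0 and 73.7 gene counts per ERCC count, the highest of their group, whose mean was 55.5 and whose next egg was at 73.5. The eggs stood apart in other genes too: over 3095 other genes that were strongly lower at MII in controls, their median log2 distance above the control MII mean was 0.81 and 0.64, against 0 to 0.24 in the other cKO eggs and 1.69 to 2.04 in control GV oocytes. Control MII eggs lay from -0.09 to 0. The genes were picked by these same control libraries, so the high values of control GV oocytes were fixed by that choice. Without both eggs, Nlrp5 was the 1 member still called, where 25.6% of genes were called higher (0.62 with an adjusted p of 0.000549). Ooep then had 0.39 with an adjusted p of 0.0677, Tle6 0.37 with an adjusted p of 0.141 and Khdc3 0.46 with an adjusted p of 0.25. Leaving out either egg alone kept all 4 calls. In a fit of the MII libraries alone Nlrp5 was again the 1 member called, with 17.5% of genes called higher (0.63 with an adjusted p of 0.00857), and the values of Ooep (0.94 with an adjusted p of 0.0691), Tle6 (0.78 with an adjusted p of 0.132) and Khdc3 (1.25 with an adjusted p of 0.113) did not pass. At the other end, cKO egg 15 held 63.1 CPM of Ooep and 27.9 CPM of Tle6, the lowest of any egg, at 14.4 gene counts per ERCC count, and all 4 calls were kept without it. The plot of single MII eggs shows this spread.

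**Figure D3:**
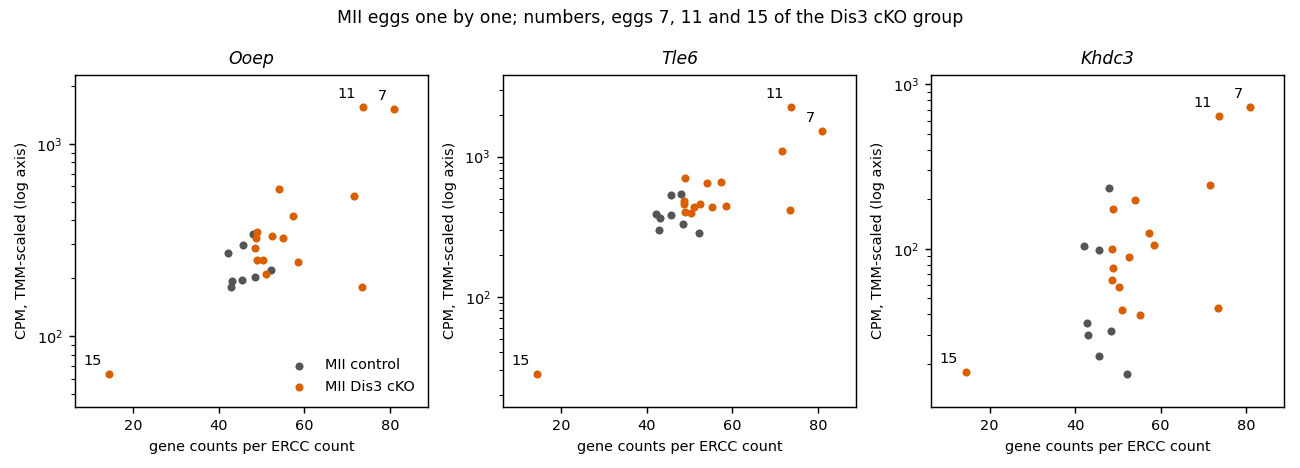
Levels of members, among them Ooep, Tle6 and Khdc3 (CPM, log axis), in single MII eggs plotted against gene counts per ERCC count. Control and Dis3 cKO eggs are marked separately and eggs 7, 11 and 15 of the cKO are numbered. Eggs 7 and 11 lie at the upper right for Ooep, Tle6 and Khdc3, and egg 15 lies at the far left.

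The Dis3 effect at MII was set against that at GV in an interaction term, where 9.28% of genes were called higher and 3.88% lower. Khdc3 (log2 fold change 2.51, SE 0.55, adjusted p = 0.000776), Tle6 (log2 fold change 1.30, SE 0.35, adjusted p = 0.00722), Ooep (log2 fold change 1.11, SE 0.36, adjusted p = 0.0272) and Nlrp5 (log2 fold change 0.92, SE 0.21, adjusted p = 0.00154) were called. Khdc3 was lower than control at GV and higher at MII. Without eggs 7 and 11, Khdc3 (1.70 with an adjusted p of 0.005), Tle6 (0.88 with an adjusted p of 0.03) and Nlrp5 (0.89 with an adjusted p of 0.00189) kept the call and Ooep (0.53 with an adjusted p of 0.147) lost it, where 8.04% of genes were called higher. ERCC scaling moved the median gene of this term from 0.07 to 0.68 and kept the direction of all 4. The call of Ooep was also lost without egg 7 alone (0.87 with an adjusted p of 0.0568) or egg 11 alone (0.86 with an adjusted p of 0.0583), and with the compared groups alone (1.08 with an adjusted p of 0.102) or oocytes numbered 1 to 8 alone (0.94 with an adjusted p of 0.0566), also with the replicate number as a block (0.77 with an adjusted p of 0.113). With oocytes numbered 1 to 8, Nlrp2 was called higher without and with the block (1182 and 1127 of 16554 genes). Without both eggs, log2 fold changes from GV to MII within the cKO were -3.21 for Khdc3, -2.68 for Ooep and -1.36 for Tle6.

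RiboMinus libraries count RNA without regard to its poly(A) tail, and levels are set beside poly(A) levels without a test, since the protocols differ. Zbed3 took a larger share of gene counts than any other gene in each of the 6 RiboMinus groups, 0.724% to 1.08%, a share of reads that is not corrected for transcript length. In adult control oocytes it ranged from 7399 to 11366 CPM (median 9030.2). Snora47, the small nucleolar RNA that overlaps Zbed3, is counted under its own ID and had 21 to 349 counts in a RiboMinus library. The core genes in adult control oocytes ranged from 837 to 1167 CPM (median 1019) for Tle6, from 672 to 956 CPM (median 811) for Nlrp5 and from 528 to 737 CPM (median 570.1) for Ooep. Khdc3 ranged from 98.1 to 146 CPM (median 121), Padi6 from 932 to 1325 CPM (median 1215), Nlrp2 from 282 to 333 CPM (median 310.0) and Nlrp4f from 1470.0 to 1779 CPM (median 1537).

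**Figure D4:**
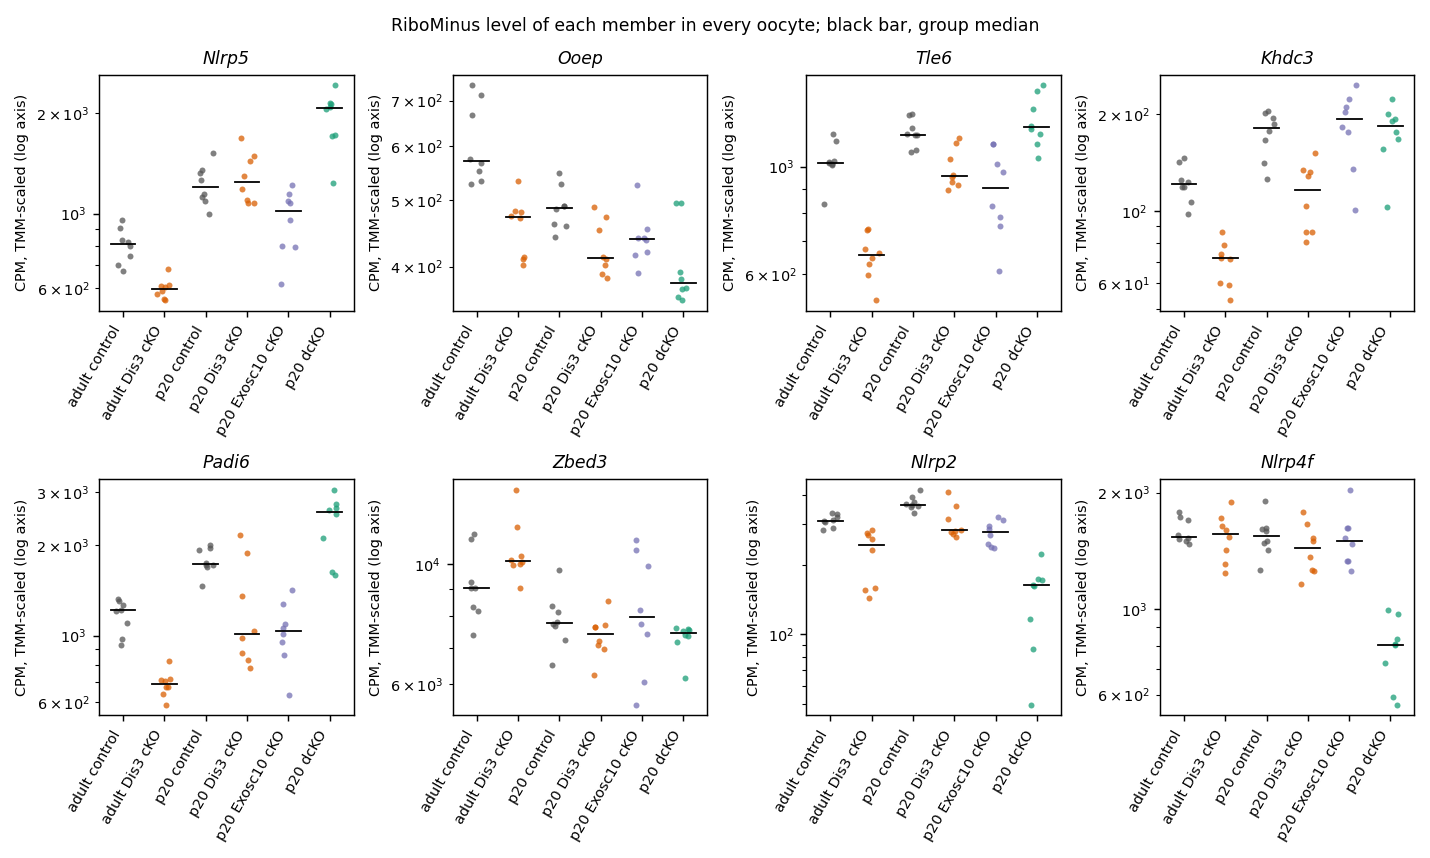
RiboMinus level of each of the 8 genes (CPM, log axis) in single oocytes of the 6 RiboMinus groups; each point is 1 library and each bar the group median. Zbed3 lies between 5491 and 13747 CPM in all groups, and Nlrp2 and Nlrp4f of the dcKO lie below all p20 controls.

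Between the ages, control adult GV oocytes were compared with control p20 oocytes, which are still growing. Nlrp5 (log2 fold change -0.61, SE 0.11, adjusted p = 0.000137), Padi6 (log2 fold change -0.61, SE 0.16, adjusted p = 0.00407) and Khdc3 (log2 fold change -0.51, SE 0.14, adjusted p = 0.00927) were lower in the adult (10.4% of genes tested) and Ooep (log2 fold change 0.32, SE 0.08, adjusted p = 0.00306) was higher (8.69%). With counts summed by the title tag, 4 oocytes to a tag, Nlrp5 alone of the 4 was called (-0.60 with an adjusted p of 0.0457, with 0.605% of genes lower). Padi6 ranged from 1461 to 2002 CPM (median 1732) at p20 and Nlrp5 from 998 to 1515 CPM (median 1201), neither of which overlapped the adult range. All adult controls lay below all p20 controls in 2.53% of genes tested. That held for Nlrp2 as well, which was not called (edgeR adjusted p = 0.279). Gene counts per ERCC count averaged 403 in adult and 1267 in p20 controls. ERCC scaling moved the median gene from 0.00 to -1.69, called all 8 members lower in the adult (85.7% of genes) and flipped Ooep to -1.39, Zbed3 to -1.48 and Nlrp4f to -1.64. The labels do not say whether the ages were processed together, so age and batch cannot be told apart.

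In adult GV oocytes, 6 of 8 members were called lower in the Dis3 cKO (12.4% of 15334 genes tested) and 0 higher (15.7%). Their median log2 fold change over all 8 was -0.44, beside 0.03 over all genes. Khdc3 ranged from 53.2 to 86.5 CPM (median 71.7) in cKO oocytes (log2 fold change -0.80, SE 0.10, adjusted p = 2.06e-05), Padi6 from 589.9 to 822 CPM (median 691 CPM, log2 fold change -0.73, SE 0.08, adjusted p = 6.33e-06) and Tle6 from 529 to 743 CPM (median 655 CPM, log2 fold change -0.63, SE 0.07, adjusted p = 6.54e-06). Nlrp2 ranged from 143 to 282 CPM (median 244 CPM, log2 fold change -0.47, SE 0.13, adjusted p = 0.00977). In these 4 genes the highest cKO oocyte was below the lowest control, as in 3.53% of all genes tested. Nlrp5 ranged from 550.4 to 682 CPM (median 596 CPM, log2 fold change -0.41, SE 0.08, adjusted p = 0.000595) and Ooep from 402 to 533 CPM (median 473 CPM, log2 fold change -0.39, SE 0.08, adjusted p = 0.0015), each with 7 of 8 oocytes below every control. Zbed3 ranged from 9029 to 13747 CPM (median 10132 CPM, log2 fold change 0.23, SE 0.09, adjusted p = 0.0684) and Nlrp4f from 1239 to 1889 CPM (median 1566 CPM, log2 fold change -0.03, SE 0.07, adjusted p = 0.815), and neither was called. Gene counts per ERCC count averaged 260.4 in the cKO and 403 in controls. ERCC scaling moved the median gene from 0.03 to -0.52 and called 7 members lower (40.1% of genes), while the direction of Zbed3 flipped to -0.33 with an adjusted p of 0.0763, again without a call. The mitochondrial share of gene counts was 1.24% to 3.04% in cKO and 0.799% to 1.21% in control oocytes, without overlap, and its part in the result was not tested.

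The 8 oocytes of each RiboMinus group carry 2 tags in their titles, 4 oocytes to a tag. With counts summed per tag, 2 sums a group, the fold changes of the 6 adult members lay between -0.88 and -0.41, but 0 of the members and 0 of 20190 genes (0%) were called by edgeR. 6 of the 8 members had an unadjusted p under 0.05 there. On single oocytes DESeq2 called the same 6 members lower (14.4% of genes). The call of Nlrp2 was also lost on single oocytes without the control tag AM1758 (-0.54 with an adjusted p of 0.0523) or AM1759 (-0.42 with an adjusted p of 0.119), while the other 5 members were called without any 1 tag. Over 9 alternatives the log2 fold change of Nlrp2 lay between -1.06 and -0.26.

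At p20 the single knockouts moved fewer members. In the Dis3 cKO, Khdc3 was the 1 member called by edgeR (log2 fold change -0.62, SE 0.16, adjusted p = 0.00937), where 3.76% of genes were called lower and 3.61% higher. It ranged from 80.7 to 151 CPM (median 116) in cKO and from 126 to 205 CPM (median 181) in control oocytes, which overlap, and the call was lost with counts summed per tag (-0.63 with an adjusted p of 0.17) or without either tag of the cKO (-0.64 and -0.61, with adjusted p of 0.062 and 0.0841), and without control tag 1 (-0.47 with an adjusted p of 0.288). Padi6 was not called in the Dis3 cKO by edgeR (log2 fold change -0.52, SE 0.18, adjusted p = 0.0671), where it ranged from 781 to 2156 CPM (median 1010.2), overlapping the controls. It was called lower in 4 of 10 alternatives: by DESeq2 (-0.51 with an adjusted p of 0.0421), with no low-count filter (-0.53 with an adjusted p of 0.0496), under ERCC scaling (-0.81 with an adjusted p of 0.0443) and with the replicate number as a block (-0.57 with an adjusted p of 0.0353). ERCC scaling moved the median gene from 0.00 to -0.31, with Khdc3 at -0.90 with an adjusted p of 0.0277. Genes detected numbered 17953 to 20028 in the Dis3 cKO and 20045 to 21710 in controls. Gene counts per library were 9566019 to 15335017 and 16043788 to 19702270. Neither overlapped between these groups, and their part in the result was not tested. In the Exosc10 cKO, Padi6 (log2 fold change -0.78, SE 0.18, adjusted p = 0.00404) and Tle6 (log2 fold change -0.39, SE 0.10, adjusted p = 0.00829) were called lower (3.50% of genes) and 0 higher (3.95%). Padi6 ranged from 637 to 1417 CPM (median 1036) against 1461 to 2002 CPM (median 1732) in controls, below every control as for 1.01% of all genes tested, and Tle6 from 608 to 1116 CPM (median 902) against 1069.6 to 1285 CPM (median 1165). Padi6 averaged 1211 and 867 CPM in the 2 tags of the Exosc10 cKO, and with counts summed per tag neither gene was called (Padi6 -0.77 with an adjusted p of 0.113). Without Exosc10 cKO tag 2 neither was called (Padi6 -0.56 with an adjusted p of 0.165, Tle6 -0.21 with an adjusted p of 0.264), nor without control tag 1 (Padi6 -0.77 with an adjusted p of 0.0577, Tle6 -0.39 with an adjusted p of 0.1), and without control tag 2 Tle6 was not (-0.38 with an adjusted p of 0.0692). Neither was called under ERCC scaling either (Padi6 -0.74 with an adjusted p of 0.131, Tle6 -0.37 with an adjusted p of 0.582). Nlrp2 was also below every control in the Exosc10 cKO but not called (log2 fold change -0.43, SE 0.16, adjusted p = 0.109). In an edgeR fit of the compared groups alone Nlrp2 was called lower (adjusted p of 0.00117), as were 4.33% of genes.

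The effect of the Dis3 cKO in the adult minus that at p20 was called for Nlrp5 (log2 fold change -0.51, SE 0.16, adjusted p = 0.0359) and Tle6 (log2 fold change -0.41, SE 0.13, adjusted p = 0.0308), both more negative in the adult, where 3.98% of genes were called lower and 5.34% higher. Neither was called under ERCC scaling (-0.69 with an adjusted p of 0.219 for Nlrp5 and -0.61 with an adjusted p of 0.287 for Tle6), which moved the median gene from 0.02 to -0.19, or with counts summed per tag (adjusted p 0.304 and 0.384). For Khdc3, called lower at both ages, this term was log2 fold change -0.20, SE 0.20, adjusted p = 0.632, which was not called.

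In the double knockout at p20, members moved in both directions: 3 were called lower (27.1% of 15882 genes tested) and 2 higher (26.6%). Nlrp2 ranged from 49.7 to 222 CPM (median 163) in the dcKO and from 336 to 422 CPM (median 364) in controls (log2 fold change -1.36, SE 0.17, adjusted p = 3.48e-08), and Nlrp4f from 565 to 995 CPM (median 809) against 1259.7 to 1903 CPM (median 1545 CPM, log2 fold change -0.96, SE 0.11, adjusted p = 1.21e-08). Both fell without overlap between the groups, as did 10.1% of all genes tested. Nlrp5 rose, ranging from 1236 to 2422 CPM (median 2072 CPM, log2 fold change 0.67, SE 0.13, adjusted p = 4.23e-05), with 7 of 8 oocytes above every control. The 3 NLR family genes thus differed in direction.

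Ooep ranged from 357 to 496 CPM (median 378) in the dcKO against 442 to 548 CPM (median 488) and was called lower (log2 fold change -0.27, SE 0.08, adjusted p = 0.00358). Padi6 ranged from 1586 to 3057 CPM (median 2571), with 6 of 8 oocytes above every control (log2 fold change 0.42, SE 0.18, adjusted p = 0.0422). Its call depended on single libraries: without dcKO oocyte 4 of tag 1 the result was 0.34 with an adjusted p of 0.112, and with counts summed per tag 0.40 with an adjusted p of 0.13. It was also lost without dcKO tag 1 (0.13 with an adjusted p of 0.657), control tag 1 (0.42 with an adjusted p of 0.145) or control tag 2 (0.44 with an adjusted p of 0.126), while without dcKO tag 2 it was 0.62 with an adjusted p of 0.00967. The other 4 calls held with counts summed per tag (16.1% of genes higher and 15.7% lower), as for Nlrp2 (-1.38 with an adjusted p of 0.00151) and Nlrp4f (-0.99 with an adjusted p of 0.00199). Tle6 (log2 fold change 0.09, SE 0.10, adjusted p = 0.429), Khdc3 (log2 fold change 0.02, SE 0.16, adjusted p = 0.909) and Zbed3 (log2 fold change -0.10, SE 0.10, adjusted p = 0.411) were not called. Under ERCC scaling Nlrp5, Nlrp2 and Nlrp4f were called (17.8% of genes higher and 20.4% lower), and Ooep (-0.37 with an adjusted p of 0.0694) and Padi6 (0.32 with an adjusted p of 0.329) were not. The pseudogene Gm5065, which overlaps Nlrp2, averaged 46.4 CPM in controls and 21.5 CPM in the dcKO. Granulosa markers summed to 24.1 to 45.3 CPM in the dcKO and 55.6 to 69.3 CPM in controls. Oocyte markers summed to 12964 to 16474 CPM in the dcKO and 9131 to 12774 CPM in controls. Neither sum overlapped between the groups, and the part of these markers in the result was not tested. Gene counts per library were 8492102 to 14246463 in the dcKO and 16043788 to 19702270 in controls. They did not overlap, and their part was not tested either.

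Set against the single knockouts, the dcKO had 6 of 8 members called against the Dis3 cKO, where 51.5% of all genes were called in either direction, and 5 of 8 against the Exosc10 cKO, where 49.2% were. Against the Dis3 cKO, Nlrp2 (log2 fold change -1.10, SE 0.17, adjusted p = 1.66e-06) and Nlrp4f (log2 fold change -0.87, SE 0.11, adjusted p = 1.11e-07) were lower (25.5% of genes), and Padi6 (0.94), Khdc3 (0.65), Nlrp5 (0.59) and Tle6 (0.33) were higher (26.0%), all called. The call of Tle6 was lost with counts summed per tag (0.31 with an adjusted p of 0.0954), without dcKO tag 2 (0.25 with an adjusted p of 0.0767) and without Dis3 cKO tag 2 (0.30 with an adjusted p of 0.055). Against the Exosc10 cKO, Nlrp4f (log2 fold change -0.94, SE 0.11, adjusted p = 3.25e-08) and Nlrp2 (log2 fold change -0.93, SE 0.17, adjusted p = 2.14e-05) were lower (25.0%), and Padi6 (1.20), Nlrp5 (1.02) and Tle6 (0.48) were higher (24.2%), and the call of Tle6 was lost under ERCC scaling (0.36 with an adjusted p of 0.185). The median of Padi6 ran from 1010 CPM in the Dis3 cKO and 1036 CPM in the Exosc10 cKO to 1732 CPM in controls and 2571 CPM in the dcKO. The 3 knockouts at p20 share their control oocytes.

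**Figure D5:**
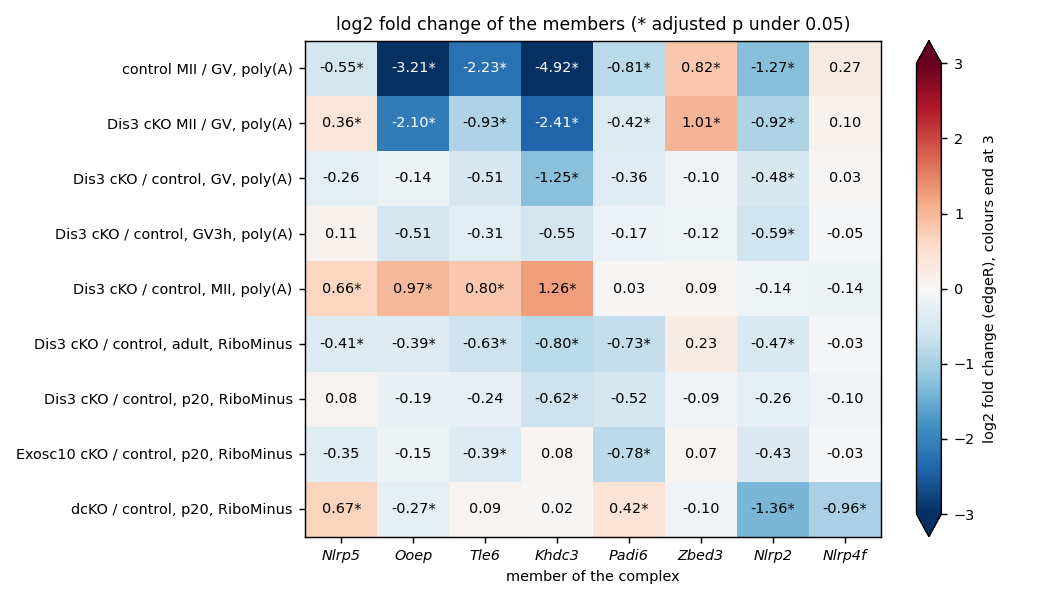
Log2 fold change of the 8 genes against controls in each knockout comparison, with those called at an adjusted p under 0.05 marked. Nlrp2 is at -1.36 and Nlrp4f at -0.96 in the dcKO, 6 members are called lower in adult RiboMinus oocytes, and 4 are called higher at MII.

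The order of the groups by level differed from member to member. Over the 12 RNA groups, with the mean of each assay removed, Tle6 and Khdc3 varied most alike among the members (Pearson r of log2 CPM 0.95), followed by Ooep and Khdc3 (0.93), and Zbed3 ran opposite to Khdc3 (-0.87). By likeness to Tle6, Khdc3 was at percentile 99.0 of 7548 genes, and by likeness to Ooep at percentile 93.0. Zbed3 was at percentile 6.35 by likeness to Khdc3. Among all 7548 genes with a mean of at least 10 CPM in both assays, the genes most like Tle6 were Zp3 (0.99), which encodes a zona pellucida glycoprotein, Slc35c2 and Zp1. Those most like Nlrp5 were Nlrp4c (0.96), Astl, which encodes the cortical granule protease ovastacin, and Ppp1r15b. Ooep was most like 1810058I24Rik, Atp5e and Selenow, Khdc3 most like Fbxw13, Abhd5 and Calr, and Padi6 most like Cog6, Mtmr14 and Zfp276. Zbed3 was most like Smu1, Mthfd2 and Ccnl2, Nlrp2 most like Rufy1, Bcat1 and Naip1, and Nlrp4f most like Etl4, Clvs2 and Csrnp3. The 12 points share libraries and normalisation, and these values are descriptions.

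Genes reported with the complex or of its families formed a list of 11 (partners), and other maternal-effect genes a list of 15. In control eggs at MII against GV, 5 of the partners were called lower and 4 higher: Dppa5a (-4.63) and Tubb2b (-2.47) had the largest decreases, Nlrp14 fell by 1.03, and Prkaca, a catalytic subunit of protein kinase A, was at 1.02. Of the other maternal-effect genes 8 were lower, among them Figla (-3.88), Zar1l (-2.84) and Npm2 (-1.92), and 4 higher, with Btg4, an adaptor for deadenylation, at 1.69. Under ERCC scaling all 11 partners and 14 of the 15 others were called lower, and the direction of Prkaca (-0.86) and Btg4 (-0.16, not called) flipped. In Dis3 cKO eggs at MII, 3 partners were higher and 2 lower than in control eggs, with Dppa5a at 2.68, and under ERCC scaling 6 were higher and 0 lower. In adult RiboMinus oocytes 3 partners were lower and 0 higher, namely Nlrp14 (-0.54), Uhrf1 (-0.46) and Prkaca (-0.36), and 5 other maternal-effect genes were lower, with Dnmt1 at -0.82 and Zar1 at -0.70, and 1 higher. With counts summed per tag 0 of 20190 genes were called in that comparison by edgeR, as given above, so none of these calls was kept. Under ERCC scaling, where 40.1% of genes were called lower, 10 partners and 11 others were lower there and 0 higher. In the dcKO 3 partners were lower, with Khdc1a at -1.19 and Khdc1c at -1.14, and 2 higher, and of the other maternal-effect genes 6 were lower and 3 higher, with Zar1l at -1.05 and Zfp36l2 at 1.05. Under ERCC scaling 3 partners were lower and 1 higher in the dcKO, and 4 others were lower and 1 higher. The shares of all genes called in these comparisons are those given above.

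CUT&Tag, which cuts and tags chromatin at a bound antibody, gave 21 peak lists, called per library, 3 for each group. Peaks were counted at members when they overlapped the 2 kb around an annotated start. The polymerase lists carry pols2s5 in their titles and need not show all RNA polymerase II. RNA polymerase II peaks lay at the starts of Nlrp5, Tle6 and Zbed3 in 9 of 9 lists. These 3 have 2, 2 and 3 annotated starts and so more windows in which a peak could be counted, while the other 5 members have 1 each. Padi6 had one in 1 of 3 lists of each group, Khdc3 and Nlrp4f in 1 of the 9 lists each, and Ooep and Nlrp2 in 0. Among protein-coding genes, 2.90% to 5.76% had such a peak in a list of adult control oocytes and 9.46% to 11.5% in p20 controls, and 4.89% to 15.3% in the adult Dis3 cKO. Over the whole gene, polymerase peaks were found in 9 of 9 lists at Nlrp5, Tle6, Padi6, Zbed3, Nlrp2 and Nlrp4f, in 7 at Khdc3 and in 1 at Ooep, where 23.8% to 56.8% of protein-coding genes had one in a list. The repressive mark H3K27me3 had a peak at the start of Ooep, Khdc3 and Padi6 in 1 of 3 adult control lists each, all in list 2, where 29.7% of protein-coding genes had one against 19.3% and 18.3% in the other 2, and at Nlrp2 and Padi6 in 1 of 3 dcKO lists, where 18.3% to 30.0% of protein-coding genes had one across all lists. Over the whole gene, H3K27me3 peaks were found in 2 of 3 dcKO lists at Nlrp5, Padi6 and Nlrp2 and in 0 of 3 p20 control lists. They were found in 1 and 0 lists at Nlrp4f, in 1 of each at Khdc3, in 0 dcKO lists and 1 control list at Zbed3, and in none of either at Ooep and Tle6. Of protein-coding genes, 45.2% to 54.7% had one in a dcKO list and 38.9% to 40.2% in a control list. No difference between groups was tested for peaks.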

How the data were processed

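Single oocytes gave 71 poly(A) and 48 RiboMinus libraries. The authors deposited whole-number read counts per gene and library, ERCC counts included. Per the submitters' processing notes, the tools included cutadapt 2.5, STAR 2.7.2a, SAMtools 1.9, HTSeq 0.9.1 and DESeq2 1.24.0, with the build mm10. The CUT&Tag peak lists hold each peak's signal as deposited, and SEACR is named in the same notes; a peak's position alone was used. An IgG group of 3 samples was not analysed here.

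Counts were compared by edgeR's quasi-likelihood test (edgeR 4.0.16, R 4.3.3) after filterByExpr, with TMM scaling and p-values adjusted by Benjamini-Hochberg over all genes tested (threshold 0.05). All 6 poly(A) groups entered 1 model, the adult pair and the 4 p20 groups 1 each, and contrasts between ages all 48 RiboMinus libraries. SE was derived from the F statistic. The scripts were tested on simulated data. Alternatives were DESeq2 1.42.0, ERCC scaling, no filter, models of the compared groups alone, counts summed per title tag, replicate blocks and omitted libraries; eggs 7 and 11 and the other single libraries beyond GV control 1 and MII cKO 15 were picked for omission after seeing the data.

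Named genes are the 8 members, Dis3 and Exosc10, at most 4 called genes with the largest absolute change from each list, and the 3 genes most like each member. The members and lists were chosen with earlier results of these data known.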

Additional observations from a re-analysis of the deposited data

Results flagged for a closer look

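Among 72 combinations of a member with a group of 8 libraries, 6 held a library far from the others, where chance gives about 1 in 20. Control MII egg 8 was highest in Nlrp5, at 1516 CPM with the next egg at 1057 CPM, and in Khdc3, at 234 CPM with the next at 104 CPM. Without this egg the Khdc3 difference between Dis3 cKO and control MII eggs was 1.83 on the log2 scale in place of 1.26. In the adult RiboMinus Dis3 cKO, 1 oocyte had 682 CPM of Nlrp5 and the next 610.0 CPM. In the Exosc10 cKO, oocyte 4 of tag 2 had 527 CPM of Ooep (next 453 CPM) and oocyte 3 of tag 2 had 2037 CPM of Nlrp4f (next 1621 CPM). In the dcKO, oocyte 4 of tag 1 was lowest in Zbed3, at 6155 CPM with the next at 7169 CPM.

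The Dis3 effect differed between MII and GV by an interaction term in Nlrp5 (0.92), Ooep (1.11), Tle6 (1.30) and Khdc3 (2.51), and between adult and p20 RiboMinus oocytes in Nlrp5 (-0.51) and Tle6 (-0.41), all on the log2 scale. The call of Ooep was lost in 6 of 13 alternatives, with 0.53 without Dis3 cKO MII eggs 7 and 11, and Khdc3 had 1.70 without them. Both calls between ages were lost under ERCC scaling and with counts summed per tag, and that of Tle6 also with no low-count filter.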

How the results depend on the processing

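Of 1232 values of a member under an alternative, 1122 kept their side of the threshold (66 of them with a change of sign and no call either way), 57 lost a call, 44 gained one and 9 reversed, all 9 under ERCC scaling. The reversed values were Zbed3 at -1.03 and Nlrp4f at -1.59 (control MII against GV), Nlrp4f at 0.39 (Dis3 cKO GV3h against GV), Nlrp5 at -0.87, Zbed3 at -0.27 and Nlrp4f at -1.15 (Dis3 cKO MII against GV), and Ooep at -1.39, Zbed3 at -1.48 and Nlrp4f at -1.64 (control adult against p20). ERCC scaling changed the number of members called from 1 to 0 at GV3h, 3 to 5 for Dis3 cKO GV3h against GV, 4 to 7 for the interaction at MII, 1 to 3 for the p20 Dis3 cKO, 2 to 0 for the Exosc10 cKO, 5 to 3 for the dcKO, 4 to 8 between ages and 2 to 0 for the interaction between ages. The share of all genes moved too, for example to 36.1% higher for Dis3 cKO GV3h against GV (7.42% under TMM) and 29.4% higher for the interaction at MII (9.28%). With the compared groups alone in the fit, the number was 4 in place of 2 at GV, 4 in place of 1 at GV3h, 1 in place of 4 at MII, 4 in place of 0 for control GV3h against GV, and 3 in place of 1 for the p20 Dis3 cKO. Genes called lower in those fits were 12.4% at GV, 24.9% at GV3h and 5.61% in the p20 Dis3 cKO, against 8.33%, 15.7% and 3.76%. Without MII eggs 7 and 11 it was 1 in place of 4. With counts summed per title tag it was 0 for the adult Dis3 cKO, the p20 Dis3 cKO, the Exosc10 cKO and the interaction between ages, and 1 between ages. The p20 Dis3 cKO had 2 calls with no low-count filter and 2 with DESeq2, and the interaction between ages had 1 with no filter. Genes called lower there were 572 of 35778 with no filter and 4.46% with DESeq2, and 641 of 38462 for the interaction. Leaving out 1 tag gave 0 to 1 calls for the p20 Dis3 cKO and 0 to 2 for the Exosc10 cKO. The cause of these changes was not tested.

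Same-numbered libraries did not deviate together (lowest correlation -0.227, at most 4 of 15 pairs over 0.1), so the numbers were not taken as pairs. With poly(A) numbers 1 to 8 alone, GV had 4 calls and GV3h 2 (1571 and 2795 of 16554 genes lower). With the replicate block GV3h had 2 (2833 of 16554 genes) and the p20 Dis3 cKO 2 (608 of 15882). Of 14 counts, 12 stayed within 1.5 times the count from the fit of all libraries without a block. For poly(A) the block fit also left out libraries beyond number 8. With numbers 1 to 8 the GV3h count was 2 with or without the block. Group means lay above the reference control in 25 of 80 combinations in CPM and in 15 per ERCC count. Members with polymerase peaks in all 3 adult control lists numbered 3 at the start and 6 over the whole gene, where 23.8% to 33.5% of protein-coding genes had one in such a list. The lowest level of a member in any poly(A) library was Khdc3 at 17.2 CPM, and reads carry no molecular identifiers.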
